A study of Sus scrofa with 14 samples.

Results

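The genes described here are the subunits and activators of the proteasome and the ubiquitin-conjugating (E2) enzymes, as expressed in the jejunum of piglets. Probes were taken whose RefSeq accession belongs to a gene with a symbol starting with PSMA, PSMB, PSMC, PSMD, PSME or UBE2, and each gene was represented by its brightest probe. The rule found 23 genes among the 3020 that could be named, measured by 49 probes. The set held 16 proteasome genes and 7 E2 enzymes.

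The samples were 14 mucosal scrapings of small intestine segments of 7 male piglets of 5 weeks (8.2 kg), each hybridised to 1 one-colour Agilent array. In the small intestinal segment perfusion (SISP) model, segments at 31 to 58% of the length of the small intestine of an anaesthetised piglet were perfused for 6 h with their blood supply intact. Pigs 1, 2 and 4 had 1 segment with control saline digest (Sd) and 1 with yellow onion digest (YOd). Pigs 5, 6, 7 and 8 had 1 segment with Sd and 1 with white onion digest (WOd), so each comparison was made within pigs, and pig 3 was not analysed here. According to the methods, the onion digests were diluted in peptone, and the control digest in saline solution and to another degree. Onion and Sd segments therefore differed in the diluent and the dilution as well. No pig received both onions, so the difference between the onions is also a difference between pigs. All replicates are different animals.

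The proteasome is the protease complex that degrades proteins tagged with ubiquitin. Its 20S core is a barrel of alpha rings and of beta rings that carry the catalytic sites, and a 19S cap recognises and unfolds substrates. Interferon gamma induces the beta subunits PSMB8, PSMB9 and PSMB10, which take the places of PSMB5, PSMB6 and PSMB7 in newly assembled particles (the immunoproteasome), together with the activator subunits PSME1 and PSME2. The immunoproteasome is known for cutting peptides for presentation on MHC class I. E2 enzymes receive activated ubiquitin from an E1 enzyme and pass it on to a substrate with the help of an E3 ligase. The small intestine renews its epithelium quickly and houses many lymphocytes, and both kinds of cells contain proteasomes.

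Among the members of the 20S core, PSMA4, PSMA5 and PSMA6 belong to the alpha ring, PSMB3, PSMB4, PSMB6 and PSMB7 are constitutive beta subunits, and PSMB8, PSMB9 and PSMB10 are the inducible ones. PSMC1 and PSMC5 are ATPases of the 19S cap, PSMD4 is a ubiquitin receptor of this cap, and PSME1, PSME2 and PSME3 form activators that dock on the core. The E2 enzymes were UBE2D1, UBE2D3, UBE2E2, UBE2J1, UBE2K, UBE2L3 and UBE2W. PSMB5 had no probe under the rule, nor had UBE2C, UBE2L6, UBE2S and UBE2T.

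Levels are log2 values of the processed signal relative to the 75th percentile of each array, so that 0 is the 75th percentile, and a floor was set at -4.43. Levels are compared between arrays for the same probe, not between genes. The 75th percentile itself ranged from 385 to 795 signal units (2.06-fold) over the 14 arrays, 50.05 to 70.7% of the probes were well above background, and 545 to 964 probes per array were saturated. Epithelial origin showed in the enterocyte genes FABP1, FABP2, APOA1, APOA4 and ANPEP, which were saturated on 13 or 14 arrays, while 7 of the 12 listed enterocyte genes had no named probe. The Sd segment of pig 6 stood apart for B lymphocytes. In that segment the level of MS4A1 was 0.92 and that of CD79A -0.25. Over the other Sd segments MS4A1 was at most -3.00 and CD79A at most -3.03, and the WOd segment of pig 6 had both at the floor. The Sd arrays of pigs 2 and 7 were scanned in a later session, on another slide than the onion array of the same pig.

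On every one of the 14 arrays the 23 brightest probes were well above background, but several were too bright. The brightest probe of PSMB9 was saturated on 14 arrays, as was its other probe. PSME2 was saturated on 13 arrays with its only probe, the exception being the Sd segment of pig 6. The brightest probe of PSMB10 was saturated on 12 arrays, that of PSME1 on 2 (the Sd segments of pigs 4 and 8) and that of PSMA6 on 1. Of the 49 probes, 43 were never saturated. Saturation on all arrays was found for 78 of the 2453 genes tested (3.18%).

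Before scaling, the signal of PSMB9 stayed between 67779 and 77107 units, a 1.14-fold range over 14 arrays. The signal of the brightest PSMB10 probe ranged 1.21-fold and that of PSME2 1.18-fold. PSMB10 and PSME2 were both dimmest in the Sd segment of pig 6, where neither was saturated. A second PSMB10 probe, never saturated, went from 9042 to 42501 units over the same arrays. After scaling, the levels of the 3 saturated probes followed the scale of the arrays. In pig 4, for example, a signal of equal brightness in both segments would give a log2 ratio of YOd over Sd of 0.62, and PSMB9 had 0.65, PSMB10 0.61 and PSME2 0.64. In pig 5 such a signal would give -0.09, and PSMB9 had -0.16, PSMB10 -0.03 and PSME2 -0.03. No fold change is therefore given for PSMB9 and PSME2, PSMB10 and PSME1 are described by their brightest probe that was never saturated, and both genes with no such probe are left out where 21 members are counted.

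**Figure D1:**
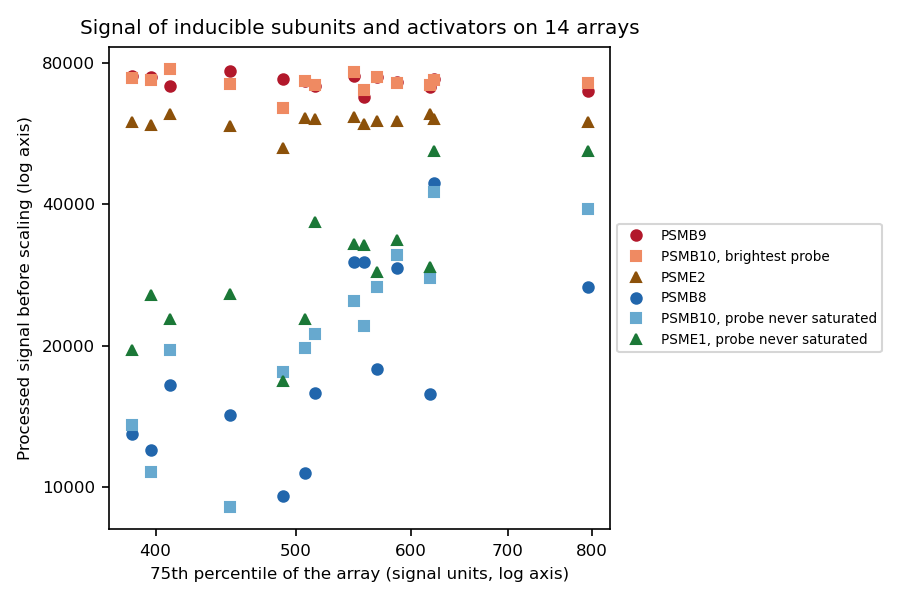
Processed signal before scaling of 6 probes on the 14 arrays (vertical log axis), against the 75th percentile of each array (horizontal log axis). The signals of PSMB9, of PSME2 and of the brightest PSMB10 probe form flat bands with a range of at most 1.21-fold, while the probes that were never saturated spread widely.

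Of the inducible subunits, PSMB8 gave the clearest picture, since none of its 3 probes was saturated. In the Sd segments of pigs 1, 2, 4, 5, 6, 7 and 8 its level was 4.98, 4.67, 5.07, 5.07, 4.29, 5.64 and 6.16. The highest level, in pig 8, was 3.66-fold the lowest, in pig 6. In the onion segments PSMB8 was 4.91, 4.97 and 4.94 with YOd (pigs 1, 2 and 4) and 5.33, 4.40, 5.76 and 5.78 with WOd (pigs 5, 6, 7 and 8). The onion levels lay within the range of the Sd levels, and the YOd segments differed from each other by less than the Sd segments of the same pigs. The log2 ratios of onion over Sd were -0.07, 0.30, -0.13, 0.26, 0.11, 0.12 and -0.38 in the order of the pigs. PSMB8 was higher in 4 of 7 pigs, with a log2 fold change of 0.03 (SE 0.11, 95% interval -0.21 to 0.27, adjusted p = 0.927 in limma). In YOd/Sd its log2 fold change was 0.03 (SE 0.16), and in WOd/Sd it was 0.03 (SE 0.16). Pig 6 had the lowest and pigs 7 and 8 the highest PSMB8 level both among the Sd and among the onion segments.

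PSMB10, which replaces PSMB7, was at 4.33, 5.49, 5.62, 5.13, 5.17, 5.73 and 6.09 in the Sd segments by its never-saturated probe. Pig 8 was again highest, but pig 1 was lowest, by 3.40-fold. The onion over Sd ratios of this probe were 0.43, 0.06, -0.27, 0.45, 0.12, -0.43 and -0.59, so 4 pigs were higher and 3 lower. The log2 fold change over the 7 pigs was -0.03 (SE 0.15, 95% interval -0.36 to 0.29, adjusted p = 0.955 in limma). A further PSMB10 probe that was never saturated had the same sign as this one in 6 of 7 pigs.

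PSME1 codes for the alpha subunit of the PA28 activator. With its never-saturated probe its Sd levels were 5.84, 5.57, 6.03, 5.67, 5.10, 5.84 and 6.39, highest in pig 8 and lowest in pig 6, as for PSMB8. The ratios of onion over Sd were 0.17, 0.09, 0.12, 0.13, 0.38, 0.04 and -0.47. PSME1 was thus higher with onion in 6 of 7 pigs and lower in pig 8 (log2 fold change 0.07, SE 0.11, adjusted p = 0.871 in limma). The brightest PSME1 probe, which was saturated in the Sd segments of pigs 4 and 8, was higher in 4 of 7 pigs instead.

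In pig 8, where PSMB8, PSMB10 and PSME1 had their highest Sd levels, all 3 had their lowest ratio of onion over Sd, at -0.38, -0.59 and -0.47. The Sd level is the denominator of this ratio, so a high Sd level by itself lowers it. All Sd values of pig 8 come from 1 array. On it 50.05% of the probes were well above background, the lowest share, beside 54.9 to 70.7% on the others. It also had the most outlier spots, 462, beside 5 to 282 on the others. The part of this array in the values of pig 8 was not tested. By their brightest probes, PSMA4, PSMA5, PSMA6, PSMB4, PSMB6, PSMC1, PSMC5, PSMD4, UBE2D3, UBE2J1 and UBE2L3 also had their lowest ratio in pig 8. PSMB3, PSMB7, PSME3 and the remaining E2 enzymes had theirs in other pigs. Several genes of the interferon axis also had their highest Sd level in pig 8, where 19.5% of the 2326 genes with a probe never saturated had theirs. These were IFNG, IRF1, IRF9, CXCL9, CXCL10, GBP1 and GBP2, while IRF7 was highest in pig 6, TAP1 and TAP2 in pig 5 and MX1 in pig 1, and B2M and SLA-3 were saturated throughout. IFNG, the gene of interferon gamma, was at -0.06 in the Sd segment of pig 8 and at -3.13 to -0.97 in the other Sd segments. The transcription factor IRF1 was at 5.98 and the guanylate-binding protein gene GBP2 at 6.39 in the Sd segment of pig 8, and their log2 ratios in pig 8 were -0.30 and -0.51. In that pig CXCL9 had a ratio of -0.95 and IRF9 one of -0.53, while CXCL10 had -0.08 and GBP1 0.02, both with probes saturated on at least 1 array. IFNG had a ratio of -0.88 in pig 8 and ratios of 0.54 to 1.84 in 5 of the other pigs. T lymphocyte markers did so only in part. CD4 and CD8A had their highest Sd level in pig 8, while CD3D, CD3E, CD3G, CD247 and CD2 had theirs in pig 5. The summed scaled signal of 7 of the 9 listed T cell genes was 16.0 in the Sd segment of pig 8, 20.7 in that of pig 5 and 4.01 to 11.7 in the other Sd segments. The lowest sum, 4.01, and the lowest Sd level of IFNG, -3.13, were in pig 7. In that segment PSMB8 was at 5.64 and PSMB10 at 5.73, below pig 8 only. All 7 T cell genes were above the floor in the Sd segments except in pig 7, where CD3D and CD4 were at the floor. In tissue scrapings, more cells of a type and more RNA per cell cannot be told apart, and the part of lymphocytes in these values was not tested.

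The constitutive counterparts were highest in pig 1 instead, where 22.3% of the 2326 genes with a probe never saturated had their highest Sd level. With quantile normalization PSMB6 stayed highest in pig 1, but PSMB7 was highest in pig 5. PSMB6, which carries the caspase-like site of the core, had Sd levels of 6.45, 5.82, 6.03, 6.24, 5.57, 6.18 and 6.25, highest in pig 1. Its ratios were 0.37, 0.10, 0.29, 0.09, 0.47, 0.31 and -0.29, higher in 6 of 7 pigs and lower in pig 8. The log2 fold change in onion/Sd was 0.19 (SE 0.11, 95% interval -0.05 to 0.44, adjusted p = 0.658 in limma). PSMB7, which carries the trypsin-like site, had Sd levels of 5.70, 5.36, 5.39, 5.63, 4.94, 5.33 and 5.58. Its ratios were 0.29, -0.17, -0.51, 0.05, 0.20, 0.38 and -0.43, with a log2 fold change of -0.03 (SE 0.13, adjusted p = 0.944 in limma). The 3 probes of PSMB6 differed most among members: in pig 7 the dimmest probe had a ratio of -1.85 where the others had 0.31 and 0.15.

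**Figure D2:**
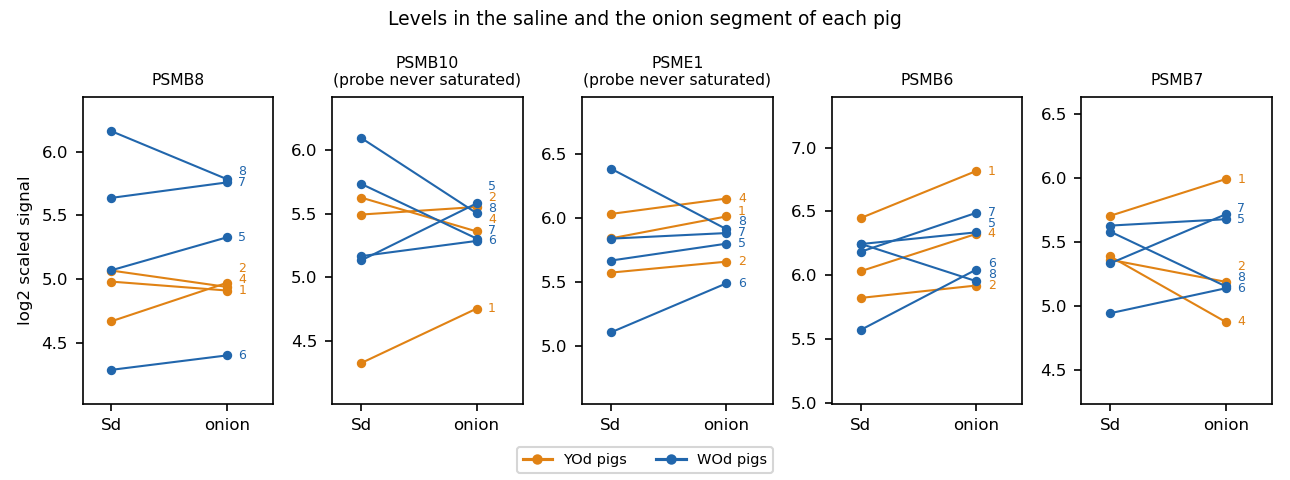
Log2 scaled signal of 3 interferon-inducible genes and of PSMB6 and PSMB7 in the Sd segment and the onion segment of each pig (lines join both segments of a pig, and numbers name the pig). Each panel spans the same range of log2 units around its own centre. PSMB8, PSMB10 and PSME1 start highest in pig 8 and are lower with onion there, and the lines of the other pigs run in both directions for PSMB8 and PSMB10.

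Inducible and constitutive subunits were compared at the RNA level. The value was the change, from Sd to onion, of the log2 difference between an inducible and a constitutive gene in the same pig. Because this is a difference within an array, a scale factor of the array cancels. PSMB8 over PSMB6 changed by -0.16 ± 0.27 (SD, n = 7) and was lower with onion in all pigs except pigs 2 and 5 (2 of 7 higher). The 2-sided exact sign-flip permutation test over the 7 pigs gave p = 0.172 and 0.516 after adjustment over 3 pairs. PSMB8 over PSMB7 changed by 0.06 ± 0.32 (SD, n = 7, higher in 4 of 7 pigs, exact p = 0.641 and adjusted p = 0.961). PSMB10 over PSMB7, with probes never saturated, changed by less than 0.01 with an SD of 0.41 (95% interval of the change -0.38 to 0.37, exact p = 0.969 before and after adjustment). The smallest p that 7 pigs allow in this test is 0.0156. Both PSMB8 pairs were formed after it was seen that PSMB5 had no probe, and PSMB9 over PSMB6 is not given because PSMB9 was saturated. PSMB8 replaces neither PSMB6 nor PSMB7, so only PSMB10 over PSMB7 sets a subunit against its own counterpart. Exchange of subunits in the particles was not measured.

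Over the 7 Sd segments, PSMB8 and PSME1 had a Pearson r of 0.89 (exact permutation p = 0.0131, adjusted p = 0.0524 over 4 pairs) and a Spearman rho of 0.71 (exact p = 0.0881). Without pigs 6 and 8, which were farthest from the median of PSMB8, r was 0.44, so with this scaling the relation rested on those 2 pigs. With quantile normalization r was 0.82 (exact p = 0.0204, adjusted p = 0.0817) and stayed at 0.82 without its 2 farthest pigs. PSMB8 with PSMB10 had an r of 0.57 (exact p = 0.172, rho 0.61, exact p = 0.167, and r 0.32 without pigs 6 and 8). PSMB10 with PSME1 had an r of 0.44 (exact p = 0.306, rho 0.46, exact p = 0.302). PSMB10 with its constitutive counterpart PSMB7 had an r of -0.21 (exact p = 0.637, rho -0.39, exact p = 0.396). Leaving out the Sd levels of PSMB10 farthest from the median, those of pigs 1 and 8, moved these values to 0.71 and 0.10. The saturated probes PSMB9 and PSMB10 had an r of 0.98 (exact p = 0.000198, adjusted p = 0.00238 over 12 pairs, rho 1, exact p = 0.000397, and r 0.95 without pigs 4 and 5). Without scaling, this r of the saturated pair was -0.04.

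By their brightest probes, most members varied less between the Sd segments than the median gene tested. The members were bright, with a median brightness percentile of 88.0 among the genes tested, and genes were not matched for brightness. The SD over the 7 Sd segments had a median of 0.28 among the 23 members, beside 0.39 among the 2453 genes tested, and by their brightest probes PSMB8 and UBE2E2 were above the latter. With probes never saturated the medians were 0.26 among 21 members and 0.41 among 2326 genes, and 3 members were above the latter, PSMB8, PSMB10 and UBE2E2. By the brightest probes, PSMA4, of the alpha ring, had the smallest SD, 0.11. Its Sd levels ran from 4.20 over a median of 4.31 to 4.51, a 1.24-fold range. The dimmer probes of PSMA4, also never saturated, had SDs of 0.51 and 0.21, so its small spread held for the brightest probe only. PSMC5, a 19S ATPase, had an SD of 0.16 (levels 5.99, 6.16 and 6.49 as lowest, median and highest), and UBE2K, which builds lysine-linked ubiquitin chains, had an SD of 0.17 (4.40, 4.69 and 4.85). The dimmer probes of PSMC5 had SDs of 0.22 and 0.38, and UBE2K had 1 probe. PSMB8 had the largest SD, 0.61. With the probe never saturated, PSMB10 had an SD of 0.57 and PSME1 one of 0.40.

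UBE2E2 had an SD of 0.46. Its Sd levels were -2.19, -2.33, -2.49, -2.03, -3.43, -2.63 and -2.38, so the value rested on pig 6. UBE2D1 had its highest Sd level, 1.35, in the same pig, where the other Sd segments had 0.38 to 0.83. In pig 6 the ratio of WOd over Sd was 0.42 for UBE2E2 and -0.53 for UBE2D1. UBE2E2 had its lowest ratio, -0.93, in pig 5. The Sd segment of pig 6 was the lowest of the 7 for 12 of the 21 members with a probe never saturated, and 31.6% of the 2326 genes with such a probe also had their lowest level there. With quantile normalization these were 8 of 21 members and 29.1% of genes. The B lymphocyte markers CD79A and MS4A1 were high in this same segment, as given above. Their part in the levels of the members was not tested.

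**Figure D3:**
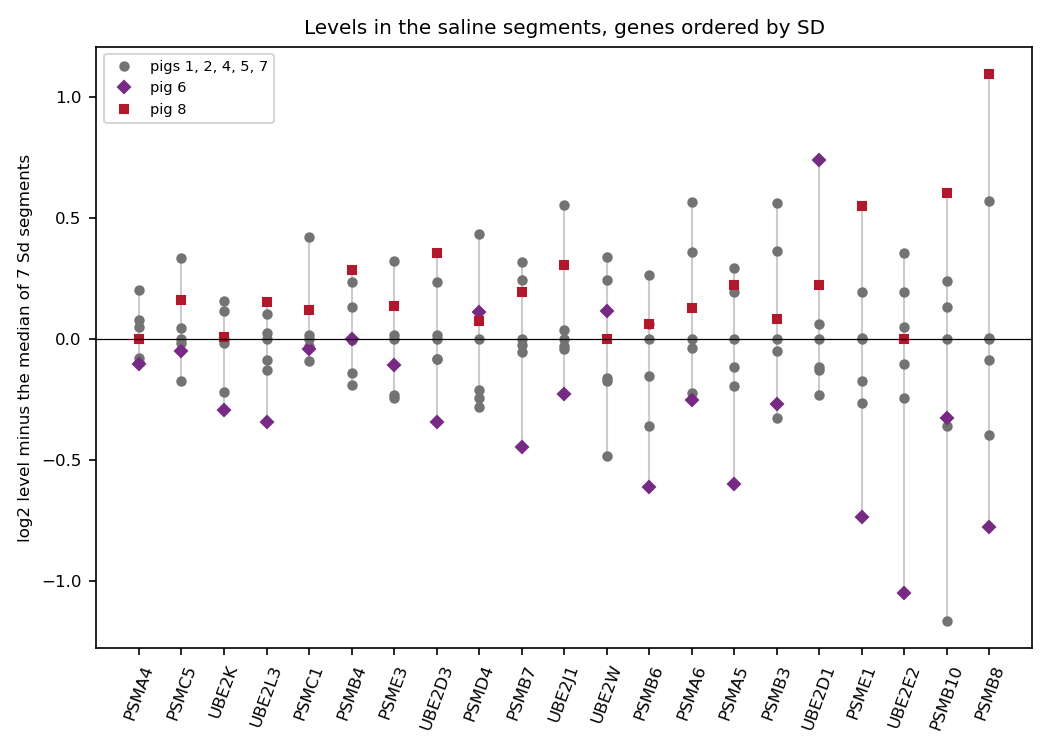
Log2 level in each Sd segment minus the median of the 7 Sd segments, for 21 members ordered by their SD (PSMB10 and PSME1 by the probe never saturated, without PSMB9 and PSME2). Pig 8 is highest for PSMB8, PSMB10 and PSME1, and pig 6 is lowest for UBE2E2, PSME1 and PSMB8 and highest for UBE2D1.

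A gene was called affected at a raw p under 0.05 with a fold change over 1.5. The 23 members counted here include PSMB9, PSMB10 and PSME2, whose brightest probes were saturated on 14, 12 and 13 arrays. Those probes could not show a change, so a count of 0 says nothing about them. With YOd, 0 of 23 members were affected in limma, while 4.50% of the 2464 genes tested were. None of the members had a raw p under 0.05 in this comparison, against 10.9% of genes. With WOd 0 of 23 members were affected (1.18% of 2467 genes), and with onion over the 7 pigs also 0 of 23 (1.22% of 2453 genes). The difference between the YOd and the WOd effect gave 0 of 23 members, beside 3.52% of 2558 genes. Again 0 members had a raw p under 0.05 in these comparisons, where 2.59%, 6.85% and 4.22% of genes had one. After Benjamini-Hochberg adjustment over all genes the count was 0 for members and for all genes (0.00%) in each comparison, with lowest adjusted p-values of members of 0.391, 0.998, 0.658 and 0.850.

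Intervals are given for the 20 members without PSMB9, PSMB10 and PSME2, whose brightest probes were saturated on most arrays. In onion/Sd, 20 of 20 had a 95% interval within a 1.5-fold change in either direction, and the intervals reached from -0.40 to 0.44 on the log2 scale. Such an interval was found for 80.0% of the genes tested, which were not matched to the members for brightness. In YOd/Sd 16 of 20 members had one (47.2% of genes), in WOd/Sd 19 of 20 (54.4% of genes) and for the difference between the onions 6 of 20 (13.2% of genes). The median log2 fold change of these 20 members was 0.13 in YOd/Sd, 0.03 in WOd/Sd and 0.06 in onion/Sd. Over all genes tested it was 0.14, 0.04 and 0.09. Among the members that were not saturated, the estimates in onion/Sd ran from -0.07 (SE 0.15) for UBE2E2 to 0.19 for PSMB6.

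**Figure D4:**
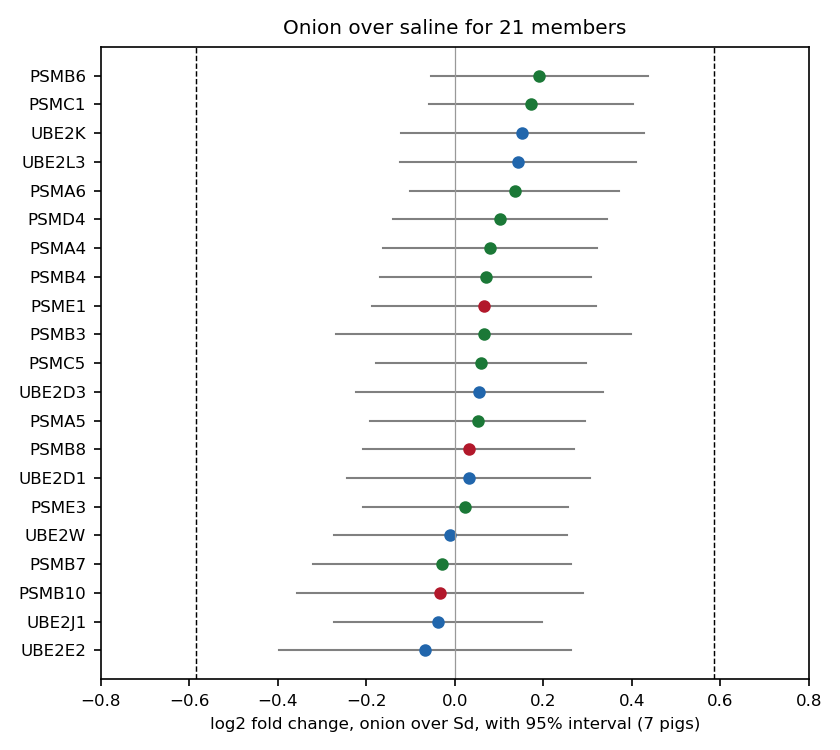
Log2 fold change of onion over Sd in 7 pigs, with its 95% interval, for 21 members (PSMB10 and PSME1 by the probe never saturated). Dashed lines mark a 1.5-fold change, green points are constitutive subunits and PSME3, red points are inducible subunits and PSME1, and blue points are E2 enzymes. All intervals include 0 and none reaches a dashed line.

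With YOd, 8 of 21 members were higher in every pig by probes never saturated, beside 28.5% of genes with such a probe. They were PSMB3, PSMB6, PSMC1, PSME1, UBE2D1, UBE2J1, UBE2L3 and UBE2W, each by its brightest such probe. There UBE2L3 had only 0.00401 in pig 2 and UBE2W 0.00454 in pig 1. The dimmer never-saturated probe of PSMC1 had -0.30 and -0.26 in pigs 2 and 4, and that of UBE2J1 -0.28 and -0.07. That of UBE2L3 had -0.07 in pig 2. Both dimmer probes of PSMB6 were higher with YOd in every pig. By the brightest probes the count was 12 of 23, beside 33.2% of genes, and 0 members (6.98% of genes) were lower in every pig. The 4 further members, PSMA6, PSMB9, PSMB10 and PSME2, were counted on probes saturated on at least 1 array. By their never-saturated probes PSMB10 had a ratio of -0.27 in pig 4 and PSMA6 one of -0.17 in pig 2. PSMB3, a constitutive beta subunit, had the largest of these changes with YOd. Its Sd levels in pigs 1, 2 and 4 were -0.51, -0.24 and 0.18, and its YOd levels were 0.35, -0.04 and 0.22. The groups overlapped, and the ratio of 0.86 in pig 1 stood beside 0.20 and 0.04 in the others (log2 fold change 0.37, SE 0.19, adjusted p = 0.391 in limma). Without pig 1 the log2 fold change of PSMB3 in YOd/Sd was 0.12, and without scaling between arrays it was 0.06. With WOd, PSMB3 was lower in pigs 5, 6 and 7 (-0.11, -0.32 and -0.44) and higher in pig 8 (0.24), with a log2 fold change of -0.16 (SE 0.17). The difference between the onions was 0.53 for PSMB3 (SE 0.27, adjusted p = 0.850 in limma). Without pig 8 it was 0.66, which passed the threshold on the raw p and counted as affected. In WOd/Sd and in onion/Sd, 0 of 23 members were higher in every pig and 0 lower in every pig. Among all genes these shares were 6.00% and 2.43% with WOd and 1.59% and 0.204% with onion.

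Among the E2 enzymes, UBE2K had the largest change with YOd. Its ratios were 0.54, -0.08 and 0.63 with YOd and -0.11, 0.18, -0.16 and 0.06 with WOd. The log2 fold change in YOd/Sd was 0.36 (SE 0.18, adjusted p = 0.391 in limma). It was 0.05 without scaling and 0.58 without pig 2, just under the 1.5-fold threshold, and there its raw p passed 0.05. The difference between the onions was 0.37 (SE 0.23), and without pig 2 it was 0.59, which counted as affected. UBE2L3, a partner of HECT and RBR ligases such as parkin, was higher in 6 of 7 pigs (0.42, 0.00, 0.20, 0.23, 0.35 and 0.26) and lower in pig 8 (-0.47). UBE2D3, an E2 that works with many ligases, ranged from -0.45 in pig 8 to 0.39 in pig 1. UBE2J1, which serves the degradation of proteins from the endoplasmic reticulum, ranged from -0.37 in pig 8 to 0.29 in pig 1. UBE2W, which attaches ubiquitin to amino termini, was lowest at -0.49 in pig 5 and highest at 0.32 in pig 4.

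The 19S subunits had positive ratios in pig 1 and negative ones in pig 8, as most subunits of the core had. PSMC1 had ratios of 0.26, 0.08, 0.22, 0.51, 0.16, 0.19 and -0.22, higher in 6 of 7 pigs. PSMC5 had 0.32, -0.02, 0.00, 0.42, 0.05, -0.07 and -0.28, and PSMD4 had 0.25, -0.13, 0.25, 0.09, 0.13, 0.43 and -0.30. In the alpha ring, PSMA4 ranged from -0.16 to 0.40, PSMA5 from -0.32 to 0.30 and PSMA6 from -0.24 to 0.46, each with its lowest ratio in pig 8. PSME3, the nuclear activator subunit, ranged from -0.39 in pig 4 to 0.26 in pig 6.

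The count of members that were higher with onion differed between pigs, as it did for all genes, and is given here for the 20 members without PSMB9, PSMB10 and PSME2. Shares of all genes are given for scaling by the 75th percentile only, not for the other settings. In pig 1, 19 of 20 were higher with YOd (18 with quantile normalization and 15 without scaling), where 73.5% of all genes were higher. The median ratio in pig 1 was 0.29 for these members and 0.19 for all genes. In pig 8, 18 of 20 were lower with WOd (15 with quantile normalization and 19 without scaling), where 57.1% of all genes were lower. Before scaling, the 75th percentile was itself lower in the onion array, by 0.18 in pig 1 and 0.19 in pig 8 on the log2 scale. The medians in pig 8 were -0.28 and -0.07. All ratios of pig 8 use its Sd array, which had the lowest share of probes well above background. The part of that array was not tested. With probes never saturated, 20 of 21 members were higher in pig 1 and 19 of 21 lower in pig 8. Of the 11 constitutive subunits and PSME3, 11 were higher in pig 1 and 10 lower in pig 8, although in pig 8 the count was 7 with quantile normalization. Of the 7 E2 enzymes, 7 were higher in pig 1 (4 without scaling) and 6 lower in pig 8 (7 without scaling). In pigs 2, 4, 5, 6 and 7, 11 to 15 of the 20 members were higher, and 55.4 to 68.6% of all genes. Their median ratios were 0.01, 0.10, 0.10, 0.17 and 0.14, beside 0.03, 0.20, 0.05, 0.09 and 0.09 for all genes. In pig 4 the direction of the members turned with the scaling: 14 of 20 were higher by the 75th percentile and 10 with quantile normalization, but 1 without scaling, where the median of all genes was -0.43. The median of the 20 members minus that of all genes was -0.21 in pig 8 (-0.11 with quantile normalization) and 0.10 in pig 1 (0.04 with quantile normalization). In the other pigs it lay between -0.09 and 0.08.

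**Figure D5:**
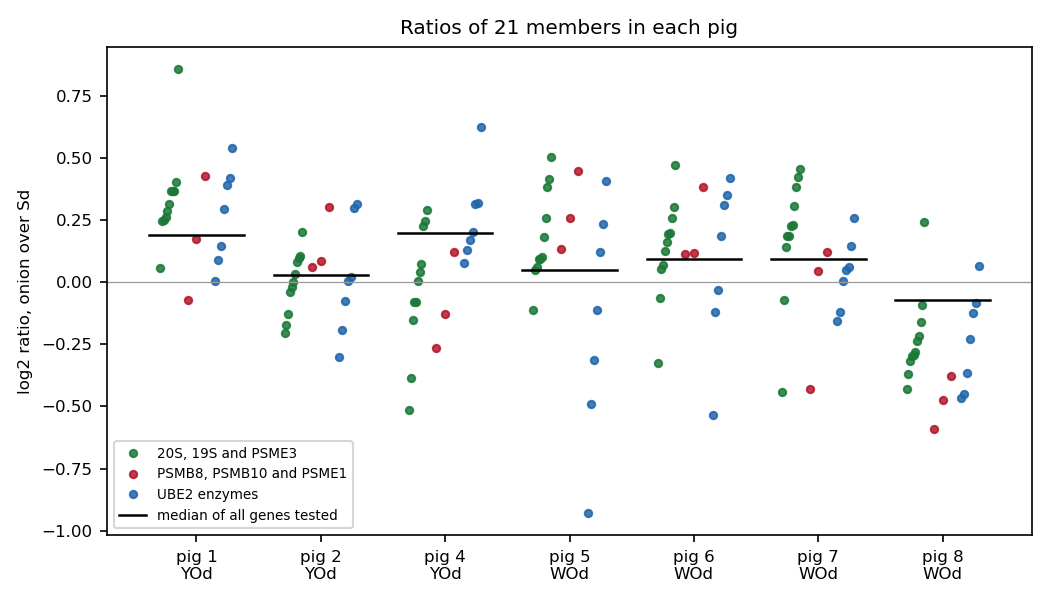
Log2 ratio of onion over Sd of 21 members in each pig (PSMB10 and PSME1 by the probe never saturated, without PSMB9 and PSME2), with the median of all genes tested as a black line. Nearly all points lie above 0 in pig 1 and below 0 in pig 8.

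Different probes of a gene did not always share a direction. For the 14 members with several probes that were never saturated, all probes had 1 sign in 68 of 98 combinations of gene and pig (69.4%). The 3 probes of PSMB8 differed by at most 0.16 in any pig. The 5 probes of PSMB4 differed by 1.01 in pig 7, and both probes of UBE2E2 by 0.99 in pig 5.

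A further list held 92 genes of the ubiquitin pathway, the interferon axis and proliferation. Of these, 38 had a named probe, with 14 from the interferon axis, 6 from proliferation and 0 E1 enzymes. In the 4 comparisons 0 of the 38 were affected. The shares of all genes were 4.50% in YOd/Sd, 1.18% in WOd/Sd, 1.22% in onion/Sd and 3.52% for the difference between the onions. The median log2 fold change of the 38 genes was 0.08 in YOd/Sd, 0.00 in WOd/Sd and 0.01 in onion/Sd. Over all genes tested it was 0.14, 0.04 and 0.09. The ubiquitin gene UBB, the ubiquitin-like modifier ISG15, B2M and the MHC class I gene SLA-3 were saturated on all 14 arrays, as PSMB9 was. PSMG1, a chaperone of proteasome assembly, had ratios of 0.40, -0.08, 0.46, -0.01, 0.47, 0.35 and -0.16. VCP, the ATPase that extracts ubiquitinated proteins from complexes and membranes, had 0.28, 0.12, -0.14, -0.01, 0.36, 0.19 and -0.26. TAP1, which transports the peptides made by proteasomes and lies between PSMB8 and PSMB9 in the Sscrofa11.1 annotation, had -0.07, -0.26, -0.24, -0.47, 0.47, 0.54 and -0.27. Its Sd levels were 3.84, 4.06, 3.97, 4.84, 3.14, 3.90 and 4.59, highest in pig 5 and, like PSMB8, lowest in pig 6. The proliferation genes TOP2A, CCNB1, CCNB2, CDK1 and AURKA had their lowest ratios in pig 4, from -1.23 to -1.05, and BIRC5 had -0.72. In the same pig all 7 E2 enzymes were higher by the 75th percentile, but 6 were lower without scaling.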

How the data were processed

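The authors deposited Feature Extraction (10.7.3.1) scanner files with the processed signal and the median and local background intensity of each spot, and a table of log2 values of 28369 probes, which served as an alternative only (the labels name RMA without a role). After removal of outlier spots, the mean signal of each probe was scaled to the array's 75th percentile, given a floor at the 40th percentile of all scaled values and put on a log2 scale. RefSeq accessions named 6686 of 43603 probes (3020 genes) through the Sscrofa11.1 table, used for names and gene order only. Tests covered genes that exceeded the floor on as many arrays as the smaller group held.

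The 4 comparisons (YOd/Sd, WOd/Sd, onion/Sd and the difference between the YOd and the WOd effect) were fitted on all genes with limma 3.58.1 (R 4.3.3) and a block for pig, following the paired analysis of the methods. Deviations from group means correlated between the arrays of the same pig with r of 0.495 to 0.723. Exact permutation tests and exact correlations used Python 3.11.15 with scipy 1.17.1. Fits and exact tests were tested on simulated data.

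The members, the lists and the tests were chosen with earlier results of these data known. Named were the inducible subunits with their counterparts, activators and interferon- or cycle-linked E2 enzymes where measured, members past the thresholds, the 3 largest changes with 1 sign in every pig and the 3 largest and 3 smallest SDs, and beside these others of each role. Lists of markers covered enterocytes, goblet cells, T and B lymphocytes, macrophages and granulocytes, smooth muscle, endothelium, red cells and cycling crypt cells. Alternatives covered scaling, background, floor, filter, probe, the authors' log2 values, block, slide and each pig left out. The use of never-saturated probes and the PSMB8 pairs were added after seeing the data. Some genes of the lists are not reported here, and no sequences were analysed here.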

Additional observations from a re-analysis of the deposited data

Results flagged for a closer look

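In 63 groups of 4 to 7 values (levels in Sd segments and ratios), 4 single pigs lay far from the rest, and chance flags about 1 in 20 groups. The Sd level of PSMC1 in pig 1 was 6.40, where the other Sd segments had 5.88 to 6.09. The Sd level of UBE2E2 in pig 6 was -3.43, where the others had -2.63 to -2.03. The WOd over Sd ratio of UBE2L3 in pig 8 was -0.47, while the other WOd pigs had 0.23 to 0.35. The WOd over Sd ratio of the brightest PSME1 probe in pig 6 was 0.22, while the other WOd pigs had -0.28 to -0.23. This probe was saturated in the Sd segment of pig 8, and the PSME1 probe that was never saturated had 0.38 in pig 6, with 0.13, 0.04 and -0.47 in pigs 5, 7 and 8.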

How the results depend on the processing

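The count of affected members stayed 0 in YOd/Sd, WOd/Sd and onion/Sd under every alternative that was run, and without the replicate block (pairing by pig) it was 0 in all 4 comparisons. For the difference between the onions it ranged from 0 to 1 over the pigs left out: PSMB3 without pig 8 (0.66) and UBE2K without pig 2 (0.59). The median ratio of the members over the pigs was 0.07, ranged from 0.02 to 0.12 over the pigs left out, and was -0.08 without scaling and 3.2e-05 with quantile normalization. Values close to 0 turned their sign. PSMB8 in onion/Sd was -0.0271 with quantile normalization, -0.12 without scaling, -0.0406 with the slide as a block and in the pigs with both arrays on 1 slide, and ranged from -0.0136 (without pig 2) to 0.0993 over the pigs left out, with -0.00641 without pig 5. PSMB7 was 0.0227 with the mean of all probes and ranged from -0.0970 to 0.0527 (without pig 4), with 0.0386 without pig 8. UBE2E2 ranged from -0.148 to 0.0767 (without pig 5). PSMB8 over PSMB7 was -0.00657 with the mean of all probes and ranged from -0.00965 (without pig 2) to 0.129. PSMB10 over PSMB7 was 0.23 with the saturated PSMB10 probe and -0.00484 with the probe never saturated. The correlation of PSMB8 with PSMB10 was -0.13 with the saturated probe, 0.66 with quantile normalization, 0.56 without scaling, 0.63 with the mean of all probes, 0.57 with the probe never saturated and 0.00173 without pig 8. That of PSMB9 with PSMB10 was 0.0795 with quantile normalization, -0.0408 without scaling and -0.44 with the mean of all probes. That of PSMB10 with PSMB7 was 0.39 with the saturated probe, -0.11 with the mean of all probes and -0.21 with the probe never saturated. Apart from the saturated probes, the cause of these shifts was not tested. The number of arrays, with 3 and 4 pigs per onion, limits the precision, and saturation leaves no measurement of change for PSMB9 and PSME2.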

Other observations

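Among the deubiquitinases, which remove the ubiquitin that E2 enzymes help to attach, UCHL1, known from neurons, varied most between segments. Its ratios of onion over Sd were 2.18, 0.22 and 0.05 with YOd and 0.61, -2.51, -2.11 and 0.30 with WOd. Its Sd levels ran from -3.25 in pig 1 to -1.01 in pig 2. The probe was well above background on all 14 arrays but dim, and its WOd level in pig 6 was close to the floor of -4.43. UCHL3 and UCHL5, from the same family, had ratios between -0.49 and 0.45. The WOd over Sd fit gave UCHL1 a log2 fold change of -0.93 (adjusted p = 0.998 in limma). UCHL1 is named here after its values were seen.

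In the order of genes of the Sscrofa11.1 annotation, PSME2 lies next to IRF9 and is separated from PSME1 by EMC9, and PSMB8 lies between TAP2 and TAP1. The interferon-regulatory factor IRF9 had Sd levels of 3.43, 2.77, 3.46, 2.93, 3.15, 3.03 and 3.54, highest in pig 8, where its ratio of WOd over Sd was -0.53.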
